A study of Homo sapiens with 6 samples.

Results

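The 10 genes described here encode 7 receptors and 3 ligands of the tumour necrosis factor (TNF) superfamily: the receptors TNFRSF9, CD40, LTBR, TNFRSF14, TNFRSF19, TNFRSF11B and TNFRSF1B and the ligands TNFSF9, TNFSF15 and TNFSF10. They were taken by symbol from a table of 19395 genes, and all 10 were found. Polyadenylated RNA was sequenced from cells labelled DLD-1, an established line derived from a colorectal adenocarcinoma. The 3 oeTNFRSF12A libraries are from cells in which overexpression of TNFRSF12A was switched on by 48 h of doxycycline (0.1 µg/mL). The 3 oeControl libraries are from cells labelled WT and untreated. Overexpression and doxycycline exposure therefore cannot be told apart, and whether the control cells carry a construct or whether 1 clone was used is not given in the labels. The labels name no separate cultures, so p-values measure the spread between these libraries, which may be technical.

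TNF receptors are cell-surface proteins that cluster when a trimeric ligand binds. Those without a death domain, such as 4-1BB (TNFRSF9), CD40, the lymphotoxin-beta receptor and TNFR2, recruit TRAF adaptors and through them activate NF-kB, as does TNFRSF12A (Fn14) itself. On lymphocytes and antigen-presenting cells many of them act as costimulators, and in epithelial cells CD40, the lymphotoxin-beta receptor and HVEM (TNFRSF14) link immune cells to inflammatory gene expression. Several of these receptor genes are themselves known NF-kB targets.

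Libraries held 18154839 to 18406885 counts, and levels are given as CPM, counts scaled to library size, in which 1 CPM stood for about 18 counts. TNFRSF12A had 404, 365 and 423 counts in the controls against 1203, 1133 and 1305 with overexpression, a 3.00-fold rise. In bulk RNA fewer cells expressing a gene and less RNA per cell cannot be told apart. Of 12758 genes tested, 5402 (42.3%) were called in edgeR's quasi-likelihood test (adjusted p threshold 0.05), 21.2% higher and 21.1% lower, and 1.70% passed when tested against a minimum fold of 1.5. Of 8 epithelial markers 4 reached 1 CPM in all 6 libraries, among them KRT8 and KRT18, while EPCAM held 0 to 4 counts per library and KRT19 1 to 3. Of 8 intestinal markers 7 stayed under 1 CPM in every library, with CDX1 and CEACAM5 at 0. The defining colonic markers of the labelled line were thus near or at 0. Of 8 kidney epithelial markers 5 reached 1 CPM in all 6 libraries, including PAX2, while EMX2 was at 0. Of 5 fibroblast markers 2 did so, COL1A1 and COL1A2 (599 and 958 CPM in the controls), while DCN was at 0. Immune cell markers are taken up beside TNFRSF9.

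TNFRSF9 and TNFSF15 rose, TNFRSF19 fell, and CD40, LTBR, TNFRSF11B, TNFSF9 and TNFSF10 did not pass the test. TNFRSF14 and TNFRSF1B were too low to enter it. The 3 calls among 8 tested genes compare with the 42.3% of all tested genes called, and TNFRSF9 entered the test only through the libraries in which it was high, so nothing is read from the number of calls. The sizes differed widely: TNFRSF9 had the 7th largest rise of the 12758 tested genes and passed against a minimum fold of 1.5 (adjusted p = 2.70e-10, edgeR), whereas TNFSF15 stood at rank 149 among rises, and neither it nor TNFRSF19 passed against that fold (adjusted p = 1 for both, edgeR).

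**Figure D1:**
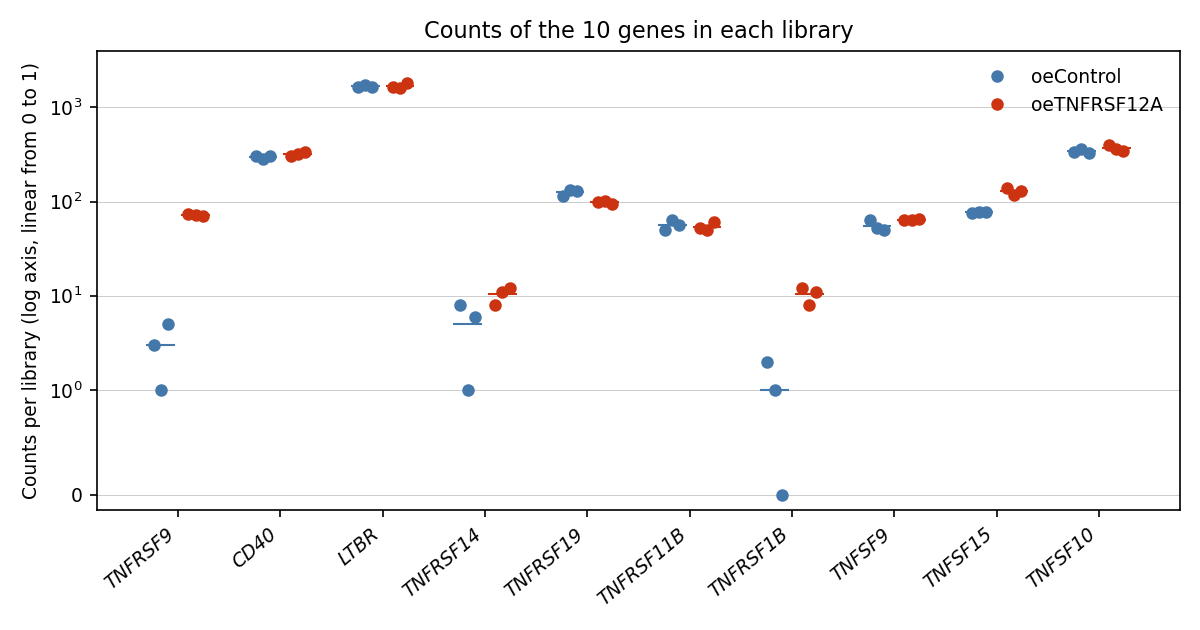
Counts of each of the 10 genes in every library, with a horizontal bar at the mean of each group of 3; the vertical axis is logarithmic above 1 count and linear from 0 to 1. In raw counts the groups separate for TNFRSF9 (1 to 5 against 70 to 74 counts), TNFSF15, TNFRSF1B and, in the other direction, TNFRSF19. They also separate for CD40 (280 to 302 against 303 to 336 counts), whose groups overlap after scaling by library size. In CPM the groups did not overlap for 51.3% of all tested genes.

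**Figure D2:**
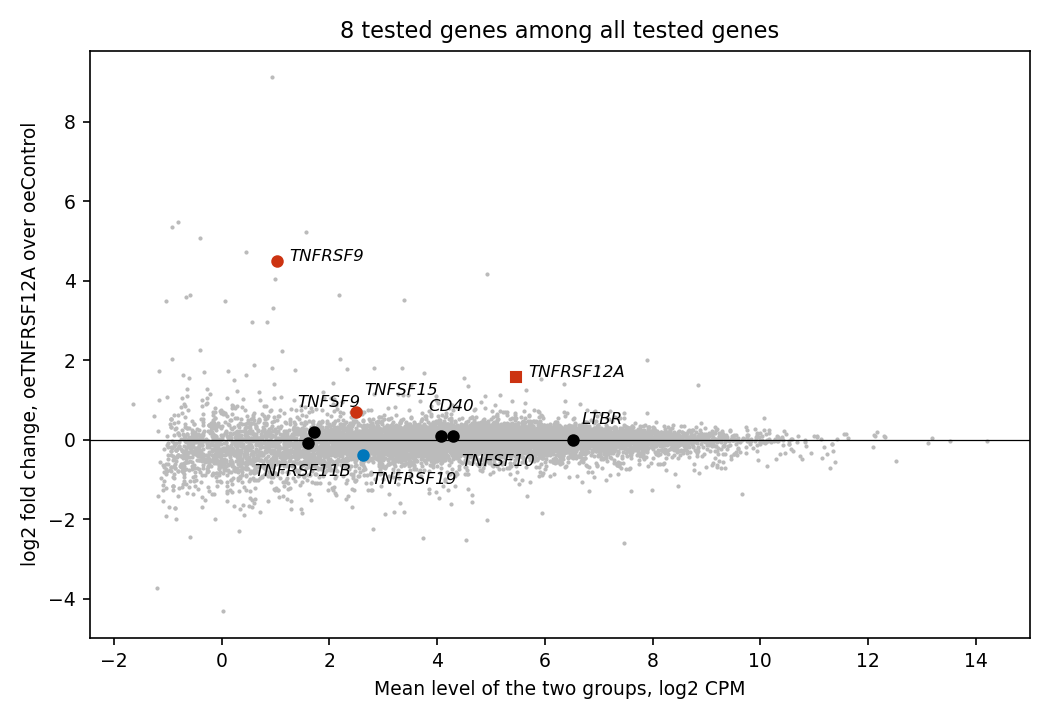
Log2 fold change of oeTNFRSF12A over oeControl against the mean log2 CPM of the groups for the 12758 tested genes (grey), with the 8 tested TNF family genes as circles and TNFRSF12A as a square, coloured red (higher), blue (lower) or black (did not pass). TNFRSF9 lies above TNFRSF12A at 4.50, while 5 of the genes lie near 0.

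TNFRSF9 encodes 4-1BB, also called CD137, a receptor best known as a costimulator of activated T and NK cells. Its controls held 3, 1 and 5 counts and the oeTNFRSF12A libraries 74, 72 and 70. The groups did not overlap, and within the oeTNFRSF12A group the 3 libraries lay within 4 counts of each other. In CPM the gene went from 0.17 ± 0.11 to 3.91 ± 0.13 (mean ± SD, n = 3 per group), a log2 fold change of 4.50 (SE 0.30, 95% interval 3.89 to 5.12) with an adjusted p of 8.94e-12 (edgeR quasi-likelihood test, Benjamini-Hochberg). Because the control group held 9 counts in all, the ratio of summed counts is known only to within 12.2 and 52.3 (95% counting interval). The gene is annotated at chr1:7915894-7943165, minus strand (GENCODE release 29, build GRCh38, as for all positions here), and shares no exon bases with another annotated gene.

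4-1BB is chiefly a gene of immune cells, and the lineage markers were read beside it. CD3E and MS4A1 were at 0 in all 6 libraries, and PTPRC, the pan-leukocyte CD45, held 9, 7 and 3 counts in the controls against 4, 4 and 3 with overexpression. The summed level of the 8 immune markers was 7.49 to 9.02 CPM in the controls and 9.55 to 12.1 CPM in the oeTNFRSF12A libraries. Of the 3 that could be tested ITGAM, an integrin chain of myeloid cells, rose from 17, 13 and 16 counts to 44, 53 and 68, while CD14 and CD68 did not pass. The part of these markers in the rise of TNFRSF9 was not tested.

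The sequence before the start of TNFRSF9 is shown because this gene rose most. Upstream sequences were searched for the kB consensus, the 10-base NF-kB motif in its usual degenerate form, on both strands of the 250 bases before each start listed by RefSeq (GRCh38.p14); 8 of the 10 genes had an entry, the exceptions being CD40 and TNFRSF11B. TNFRSF9 and TNFRSF14 held a match, against 5.21% of 35116 listed starts. For TNFRSF14 all 250 bases searched lie inside exons annotated by GENCODE. In TNFRSF9 the match on the sense strand spans bases -74 to -65 and overlaps by all but 1 base a match on the opposite strand at -73 to -64. A match describes letters and shows neither binding nor a cause. The sense-strand match is in capitals in the stretch that follows, which begins 250 bases before the RefSeq start (chr1:7940904-7941089, minus strand) and ends at the match. GENCODE annotates an exon over the bases nearest the start, and the last 30 printed bases, the match included, lie inside it. The RefSeq start itself lies inside the annotated span of TNFRSF9, and gene-level counts do not say which start was used. VCAM1, the gene whose profile came closest to that of TNFRSF9 (described further on), is given beside it (chr1:100719492-100719741, plus strand), with its match at -62 to -53 in capitals. The listed starts of TRAF1 and ANKRD22, next closest in profile, and of TNFSF18 were searched in the same way and held no kB match.
TNFRSF9: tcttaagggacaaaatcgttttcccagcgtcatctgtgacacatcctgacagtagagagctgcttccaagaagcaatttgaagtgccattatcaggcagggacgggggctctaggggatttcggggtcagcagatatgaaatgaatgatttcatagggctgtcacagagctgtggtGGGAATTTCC
VCAM1: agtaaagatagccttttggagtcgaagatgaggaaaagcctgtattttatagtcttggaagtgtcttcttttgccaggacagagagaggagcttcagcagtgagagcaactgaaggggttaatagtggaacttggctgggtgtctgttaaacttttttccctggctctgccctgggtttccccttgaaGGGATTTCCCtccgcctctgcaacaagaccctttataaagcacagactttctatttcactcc

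TNFRSF1B, which encodes TNFR2, the TNF receptor without a death domain, was the other receptor with far more counts after overexpression: 2, 1 and 0 in the controls, and 12, 8 and 11 in the oeTNFRSF12A group. The groups did not overlap, although every value is small. The ratio of summed counts, 31 against 3 and scaled by library size, was 10.2 with a 95% counting interval of 3.17 to 51.9; it was 20.3 without oeControl replicate 1 and 6.76 without oeControl replicate 3. The gene did not meet the minimum of 10 counts in enough libraries to be tested; with no filter its adjusted p was 7.59e-05 (edgeR quasi-likelihood test over 15957 genes), and adjusted p ran from 7.59e-05 to 0.00346 over the 5 alternative fits that held it. In 4 of these, each with 1 library left out, it entered only through the oeTNFRSF12A libraries, where it is high, so the range is a description. It is annotated at chr1:12167003-12209228 (plus strand), and 36 of its 3766 exon bases are shared with MIR7846 on the same strand.

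TNFRSF14, encoding HVEM, a receptor for LIGHT and a ligand of the inhibitory receptor BTLA, was at the limit of detection in both groups. Counts were 8, 1 and 6 in the controls and 8, 11 and 12 in the oeTNFRSF12A libraries. The groups met at 8 counts, and the ratio of summed counts was 2.03 (95% counting interval 1.06 to 4.05). With no filter the adjusted p was 0.105 (edgeR), and over the 5 alternative fits that held the gene, 4 of them entered only through the oeTNFRSF12A libraries, it ran from 0.0466, without oeControl replicate 1, to 0.391, without oeControl replicate 2. The ratio without that second library, which held 1 count, was 1.45. TNFRSF14 (chr1:2555639-2565382, plus strand) shares 831 of its 6219 exon bases with the antisense gene TNFRSF14-AS1. Without a stated strand setting, reads over the shared bases cannot be assigned to either gene.

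LTBR, encoding the lymphotoxin-beta receptor, which drives NF-kB through the non-canonical pathway, was the most abundant of the receptors and did not pass. It held 1648, 1711 and 1663 counts in the controls and 1633, 1607 and 1810 in the oeTNFRSF12A libraries. The control range lies inside that of the oeTNFRSF12A libraries. At 92.5 ± 1.82 and 91.4 ± 5.35 CPM the log2 fold change was -0.02 (95% interval -0.10 to 0.07; adjusted p = 0.763, edgeR); with library totals alone the sign turned, to a value of 0.0024. LTBR is annotated at chr12:6375045-6391571 (plus strand) and shares 422 of 6280 exon bases with SCNN1A on the opposite strand, which itself went from 35.6 ± 1.99 to 21.8 ± 1.74 CPM; what part of the LTBR reads this concerns was not tested.

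CD40, the receptor through which T-helper cells activate B cells and other antigen-presenting cells, was expressed and did not pass either. The controls held 302, 280 and 302 counts and the oeTNFRSF12A libraries 303, 320 and 336. The lowest oeTNFRSF12A library stood 1 count above the highest control in raw counts, but after scaling by library size the groups overlapped. The level was 16.3 ± 0.70 and 17.4 ± 0.79 CPM, a log2 fold change of 0.09 (95% interval -0.06 to 0.24; adjusted p = 0.319, edgeR). CD40 is annotated at chr20:46118272-46129863 (plus strand).

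TNFRSF19, or TROY, an orphan receptor of epithelial and neural stem cells and a known Wnt target gene, was the 1 tested gene of the 10 that fell. Counts were 115, 133 and 130 in the controls and 98, 102 and 95 in the oeTNFRSF12A libraries. Every oeTNFRSF12A library was below every control. The level went from 6.96 ± 0.52 to 5.34 ± 0.22 CPM, a log2 fold change of -0.38 (SE 0.11, 95% interval -0.61 to -0.15; adjusted p = 0.00816, edgeR quasi-likelihood test), and the gene did not pass in DESeq2 (adjusted p = 0.0619). Over all alternatives the adjusted p ran from 0.00655 to 0.0619. TNFRSF19 is annotated at chr13:23570370-23676104 (plus strand).

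TNFRSF11B encodes osteoprotegerin, a secreted decoy receptor that binds RANKL and, with lower affinity, TRAIL. It held 50, 63 and 57 counts in the controls and 53, 50 and 60 in the oeTNFRSF12A libraries, and the groups overlapped. The log2 fold change was -0.09 (95% interval -0.41 to 0.24; adjusted p = 0.693, edgeR). It is annotated at chr8:118923557-118952200 (minus strand).

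Among the ligands, TNFSF15 rose. It encodes TL1A, also known as VEGI, which costimulates T cells through DR3 (TNFRSF25) and restrains endothelial growth. The controls held 76, 78 and 78 counts and the oeTNFRSF12A libraries 138, 117 and 130. The groups did not overlap, as was so for 51.3% of all tested genes. The level went from 4.27 ± 0.05 to 6.97 ± 0.58 CPM, a log2 fold change of 0.70 (SE 0.12, 95% interval 0.46 to 0.95) with an adjusted p of 3.45e-05 (edgeR quasi-likelihood test). TNFSF15 is annotated at chr9:114784635-114806126 (minus strand) and shares no exon bases with another gene.

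The RefSeq start listed for TNFSF15 lies inside that span, so it is 1 of the gene's starts, and gene-level counts do not say which was used. The 250 bases before it (chr9:114792531-114792780, minus strand) are shown for the ligand that rose. They hold no kB consensus. They hold 1 TGANTCA, the core AP-1 motif, at -120 to -114 (capitals), as do 6.57% of the listed starts; the motif is its own reverse complement, so that 1 place matches on both strands. TNFRSF9 holds the same motif at -44 to -38, outside the stretch printed for it, so the motif does not set the 2 genes apart.
TNFSF15: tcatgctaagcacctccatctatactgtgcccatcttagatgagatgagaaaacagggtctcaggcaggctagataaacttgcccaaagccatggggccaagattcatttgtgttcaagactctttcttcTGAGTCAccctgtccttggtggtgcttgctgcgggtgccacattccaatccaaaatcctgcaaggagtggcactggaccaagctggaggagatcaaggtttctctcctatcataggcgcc

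TNFSF9, the ligand of 4-1BB, and TNFSF10, which encodes the death ligand TRAIL, did not pass. TNFSF9 held 63, 52 and 50 counts in the controls and 63, 64 and 65 in the oeTNFRSF12A libraries, equal to 3.04 ± 0.40 and 3.48 ± 0.03 CPM. The highest control lay within the range of the oeTNFRSF12A group after scaling, and the log2 fold change of 0.19 had a 95% interval of -0.12 to 0.51 (adjusted p = 0.324, edgeR). TNFSF10 held 338, 364 and 329 counts against 398, 366 and 345, or 19.0 ± 1.03 and 20.1 ± 1.57 CPM. Its groups overlapped, with a log2 fold change of 0.08 (95% interval -0.07 to 0.23; adjusted p = 0.394, edgeR). TNFSF9 is annotated at chr19:6530999-6535928 (plus strand) and TNFSF10 at chr3:172505508-172523507 (minus strand).

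Levels of different genes were compared as CPM per kilobase of exon, over the union of each gene's GENCODE exons. In the controls LTBR stood first at 14.7 ± 0.29 CPM per kb, followed by CD40 at 6.45 ± 0.28 and TNFSF10 at 5.47 ± 0.30. TNFSF9 (1.83 ± 0.24), TNFRSF19 (1.36 ± 0.10), TNFRSF11B (1.11 ± 0.13) and TNFSF15 (0.54 ± 0.01) came next. TNFRSF14 (0.044 ± 0.032), TNFRSF9 (0.026 ± 0.017) and TNFRSF1B (0.015 ± 0.015) were last, and their libraries overlapped, so their order is not resolved. In the oeTNFRSF12A libraries the first 7 genes kept their order, although TNFRSF19 and TNFRSF11B (1.04 CPM per kb each) now overlapped, and TNFRSF9 reached 0.62 ± 0.02 CPM per kb, still below TNFSF15 at 0.88 ± 0.07. Exon lengths limit this order: with the basic transcript set TNFSF10 (9.73) came before CD40 (8.63) in the controls, and LTBR, whose exon length falls from 6280 to 2427 bp, reached 38.1 CPM per kb.

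**Figure D3:**
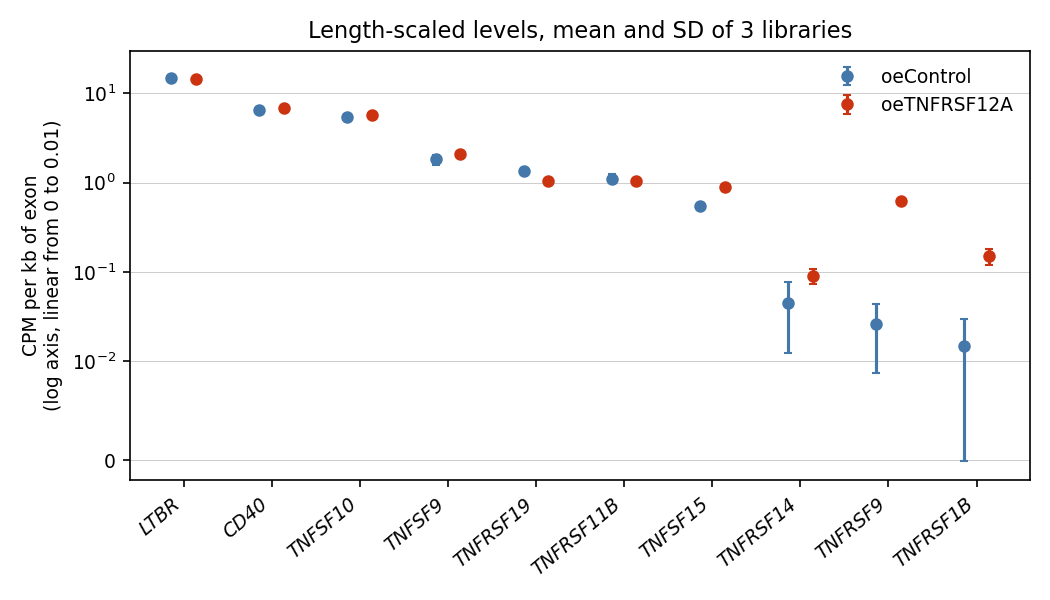
Level of each of the 10 genes as CPM per kilobase of exon in both groups (points, mean; bars, SD of 3 libraries), on an axis that is logarithmic above 0.01 and linear below, ordered by the control level. TNFRSF9 is among the 3 lowest genes in both groups and reaches 0.62 CPM per kb, below TNFSF15, in the oeTNFRSF12A libraries.

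Ligands and receptors that bind the described proteins were read in the same libraries. For 4-1BB the ligand gene TNFSF9 was present in both groups (1.83 ± 0.24 and 2.09 ± 0.02 CPM per kb), so that in the oeTNFRSF12A libraries receptor and ligand transcripts were both measured. CD40LG held 0 counts in all 6 libraries, which allows up to 0.0274 CPM over them. LTA held 0 to 3 counts per library, and LTB had 6, 6 and 8 in the controls, then 3, 2 and 2. TNFSF14, encoding LIGHT, the ligand shared by LTBR and HVEM, had 15 to 16 counts against 8 to 10, a log2 fold change of -0.73 that did not pass (adjusted p = 0.0679, edgeR). Of the other HVEM partners BTLA held at most 5 counts in any library, and CD160 did not pass (log2 fold change 0.15, adjusted p = 0.651, edgeR). TNF, the ligand of TNFR2, held 4, 5 and 4 counts against 0, 2 and 2. Apart from TNFSF14, the ligand genes of CD40, LTBR and TNFR2 thus held at most 8 counts in any library.

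For TL1A the receptor and the ligand moved in opposite directions. TNFRSF25, encoding DR3, held 84, 76 and 68 counts in the controls and 50, 41 and 53 in the oeTNFRSF12A libraries. The groups did not overlap, and the log2 fold change was -0.69 (SE 0.16; adjusted p = 9.33e-04, edgeR). The decoy receptor TNFRSF6B was at 0 in all libraries, again with a limit of 0.0274 CPM.

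Of the TRAIL receptors, the death receptor genes TNFRSF10A and TNFRSF10B rose, by 0.37 and 0.29 on the log2 scale (adjusted p = 2.91e-06 and 5.61e-08, edgeR), and TNFRSF10A went from 612, 566 and 570 counts to 771, 750 and 783. The decoy genes TNFRSF10C (-0.59) and TNFRSF10D (-0.06) did not pass (adjusted p = 0.0600 and 0.193, edgeR). TNFRSF10C passed without oeTNFRSF12A replicate 3 (-0.86, adjusted p = 0.0170, edgeR). Of the partners of osteoprotegerin TNFSF11, encoding RANKL, was at 0 counts apart from 2 in oeTNFRSF12A replicate 2. Its receptor RANK, encoded by TNFRSF11A, fell by 0.34 on the log2 scale (22.3 ± 0.38 to 17.6 ± 1.08 CPM, adjusted p = 2.83e-04, edgeR); this gene was chosen after its values were seen.

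**Figure D4:**
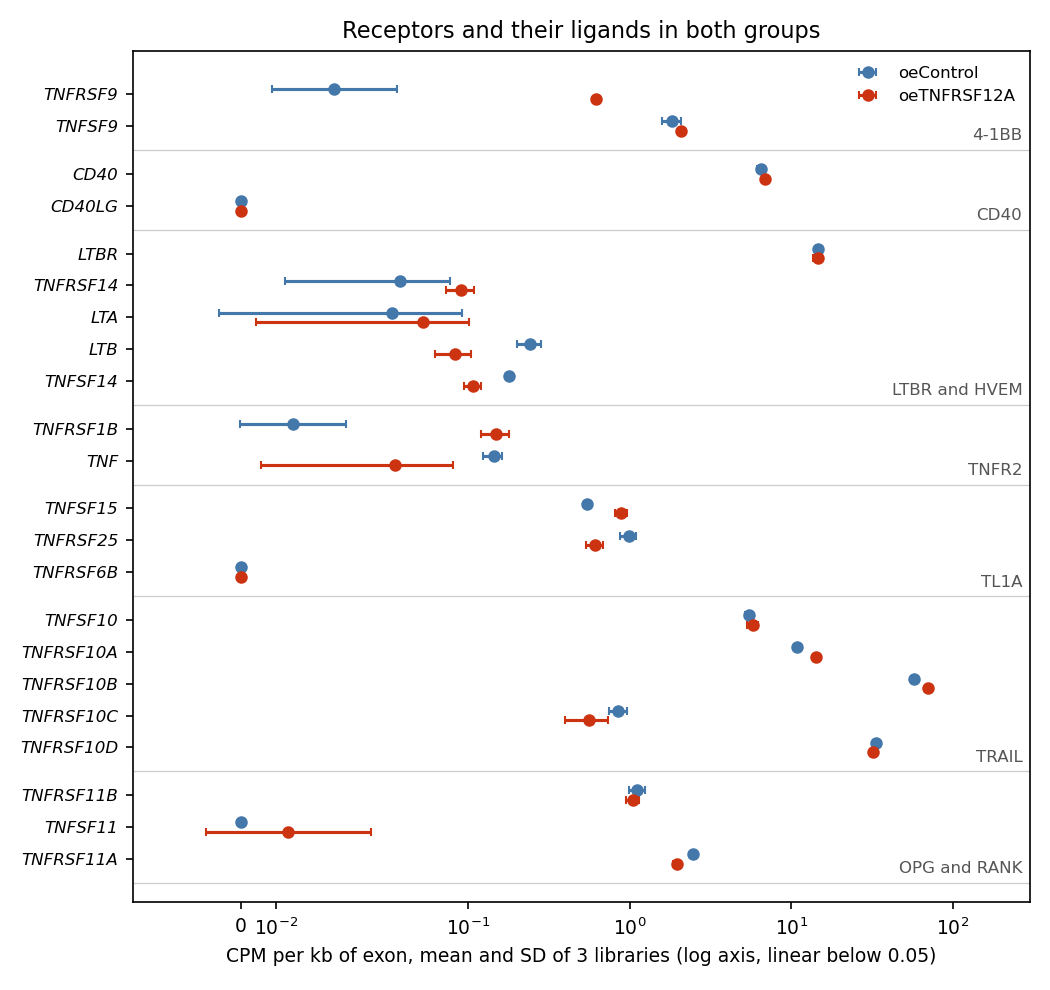
CPM per kilobase of exon of the described receptors and ligands other than TNFRSF19, and of binding partners, grouped by receptor system. The HVEM partners BTLA and CD160 are not drawn. Points are means and bars the SD of 3 libraries per group, on an axis logarithmic above 0.05 and linear below. CD40LG and TNFRSF6B sit at 0, and TNFRSF9 moves from 0.026 to 0.62 CPM per kb, below TNFSF9 in both groups.

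The rest of the family gave a mixed picture. Of 21 other TNF receptor genes 13 could be tested, 5 rose, 3 fell and 5 did not pass, beside 21.2% higher and 21.1% lower over all tested genes, with a median log2 fold change of -0.13 against 0.00 over all tested genes. FAS, the receptor for Fas ligand, went from 19.1 ± 0.06 to 32.4 ± 0.23 CPM (log2 fold change 0.76, adjusted p = 1.49e-10, edgeR), and TNFRSF21, or DR6, rose by 0.31. Of 15 other ligand genes 5 could be tested, 2 rose, 1 fell and 2 did not pass, beside the same shares, with a median of 0.19. TNFSF18, encoding the costimulatory ligand GITRL, held 7, 6 and 5 counts in the controls and 45, 48 and 52 in the oeTNFRSF12A libraries. These groups were far apart. The gene entered the test only through the oeTNFRSF12A libraries, and the log2 fold change was 2.96 (SE 0.27; adjusted p = 3.17e-09, edgeR), rank 17 among rises. Its receptor gene TNFRSF18 had 1 count in all 6 libraries together. CD70, the ligand of CD27, rose by 0.47 (adjusted p = 0.0114, edgeR), a call lost without oeTNFRSF12A replicate 3 (0.27, adjusted p = 0.124, edgeR), and TNFSF12, encoding TWEAK, the ligand of TNFRSF12A, fell by 0.47 on the log2 scale (adjusted p = 0.00156, edgeR).

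**Figure D5:**
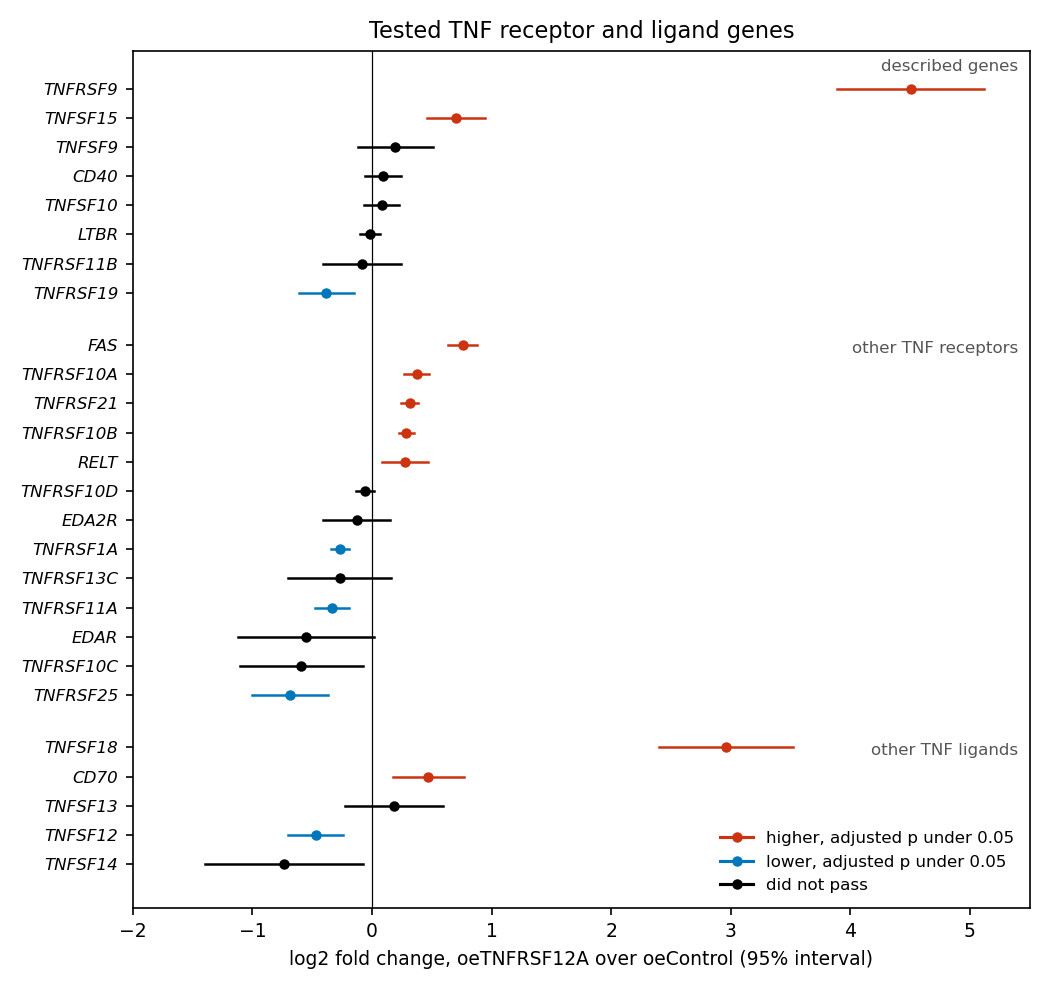
Log2 fold change with its 95% interval for the tested TNF receptor and ligand genes other than TNFRSF12A, in 3 blocks, with red for genes called higher, blue for lower and black for those that did not pass. TNFRSF9 (4.50) and TNFSF18 (2.96) lie apart from the rest, whose values fall between -0.73 and 0.76.

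Costimulatory and checkpoint ligands of the immunoglobulin, butyrophilin and NKG2D-ligand families were read as a further group. Of 29 listed genes 20 could be tested, 7 rose, 2 fell and 11 did not pass, a share called near the 42.3% of all tested genes, with a median of 0.04. CD47, which signals against phagocytosis, rose by 0.30 and the butyrophilin BTN2A2 by 0.39, and the adhesion molecule NECTIN3 fell by 0.32 on the log2 scale (largest adjusted p of the 3 genes 4.88e-06, edgeR). ICOSLG (0.74), the ligand of ICOS, and NECTIN1 (0.69) also rose, and CD274, encoding PD-L1, did not pass (-0.0013, adjusted p = 0.995, edgeR). PDCD1LG2, encoding PD-L2, rose by 0.60 (adjusted p = 0.0349, edgeR), from 25, 19 and 30 counts to 46, 32 and 36. ICOSLG, NECTIN1, CD274 and PDCD1LG2 were chosen after their values were seen. CD86 was at 0, and CD80 held at most 4 counts per library. Among 28 genes of receptor-proximal NF-kB signalling, which include adaptors, kinases, NF-kB subunits and inhibitors, all could be tested, 19 rose, 1 fell and 8 did not pass, beside 21.2% higher and 21.1% lower over all tested genes, with a median of 0.35 against 0.00. The 19 include genes whose products restrain NF-kB, namely the inhibitors NFKBIA (0.73), NFKBIB (0.39) and NFKBIE (1.09) and the deubiquitinases TNFAIP3 (1.10) and CYLD (0.36). TRAF1, an adaptor of TNFR2 and 4-1BB, led with a log2 fold change of 4.16, then BIRC3 (2.01), the ligase cIAP2, and NFKB2 (1.41), the p100 precursor; TRAF5, chosen after its values were seen, was the 1 that fell (-0.27).

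Profiles over the 6 libraries were compared with those of 11560 other genes that averaged 50 counts or more in one of the groups, by the root mean square difference of log2 CPM centred on each gene's mean. Closest to TNFRSF9 were VCAM1 (0.32), TRAF1 (0.48) and ANKRD22 (0.50). These 3 genes had log2 fold changes of 3.51, 4.16 and 4.03. Closest to TNFSF15 were TFPI2 (0.06), ITGA2 (0.06) and SMG6 (0.07), which rose by 0.61, 0.73 and 0.61. Closest to TNFRSF19 were GOLGA7B (0.02), SLC9A5 (0.03) and BPHL (0.03), with log2 fold changes of -0.37, -0.42 and -0.36. With 6 libraries in 2 groups this measure reflects the size of the group difference and, at few counts, the scatter between libraries. TNFRSF9 held 3, 1 and 5 counts in the controls. VCAM1 came first for it, although TRAF1 and ANKRD22 had log2 fold changes nearer to its 4.50. The order of these 3 genes therefore carries little weight.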

How the data were processed

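RNA was extracted with TRIzol and enriched with oligo(dT) beads, per the labels' protocols. Per the submitters' processing notes, RSEM 1.3.1, Bowtie2 2.4.5 and HISAT2 2.2.1 were used with builds GRCh38 and hg38; no source used here gives the annotation or strand setting. Values deposited by the authors per gene symbol were read to be expected counts; all are whole numbers, so rounding changed none. From 19396 rows, 1 without a gene name (0 counts) was dropped; columns of other samples numbered 0.

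The fit used edgeR 4.0.16 under R 4.3.3 (limma 3.58.1 loaded): filterByExpr (minimum count 10, 12758 genes kept), TMM factors, a robust quasi-likelihood fit with group as the only term, Benjamini-Hochberg adjustment over all tested genes, and glmTreat against 1.5-fold. SEs are the log2 fold change divided by the root of F. Log2 CPM used a prior count of 2. Ratios of summed counts carry exact Clopper-Pearson 95% intervals, and a gene at 0 was given a floor of 3 counts over all libraries; both cover counting error only, and PCR copies are not independent molecules. Exon lengths, positions and overlaps come from GENCODE release 29, upstream sequences from RefSeq (GRCh38.p14). The fit was tested on simulated data.

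Replicates differed by more than sampling noise (chi-square per gene 1.61 to 3.35 within groups, 17.7 to 19.8 between), so all 6 libraries were counted. Alternatives were other scalings, no filter or 1 CPM in all libraries, DESeq2 1.42.0, a replicate block and each library left out; exon lengths of the basic transcript set were added after the data were seen. The genes described and the lists were chosen with earlier results of these data known. Named are the 10 genes, TNFRSF12A, the 3 genes of each list with the lowest p, binding partners, and the 3 closest profiles of the 3 called genes with the largest change; all other genes named, marked or not, were chosen with their values seen.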

Additional observations from a re-analysis of the deposited data

How the results depend on the processing

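Most values kept their direction and call: TNFRSF9 was called in the 13 fits that tested it, TNFSF15 in all 14 and TNFRSF19 in 13 of 14. Apart from the fit with no filter, TNFRSF9 entered these fits only through the oeTNFRSF12A libraries, where it is high. Its 13 calls are therefore a description. Of the 10 genes, 2 were called higher, and 3 with no filter, which lets TNFRSF1B in. The count was 1 where 1 CPM in all libraries was required, a filter that removes TNFRSF9, and 2 to 4 with 1 library left out. The 4 came without oeControl replicate 1, where TNFRSF1B and TNFRSF14 entered the test and passed. The count called lower was 1, and 0 in DESeq2, where TNFRSF19 had a log2 fold change of -0.38 and an adjusted p of 0.0619. Past 1.5-fold stood 1 gene, 2 with no filter, which lets TNFRSF1B in, 0 with 1 CPM in all libraries, and 1 to 2 with 1 library left out. The log2 fold change of LTBR (-0.02) turned to 0.0024 with library totals alone and ran from -0.067 to 0.0094 with 1 library left out, never called. That of CD160 (0.15) ran from -0.061 to 0.33, also never called. GOLGA7B lost its call in DESeq2 (adjusted p = 0.101) and without oeControl replicate 2 or 3 (adjusted p = 0.0601 and 0.0508, edgeR). The ratio for TNFRSF14 ran from 1.45 to 2.91 and that for TNFRSF1B from 6.76 to 20.3 with 1 library left out. Causes of changes other than those the filters make by construction were not tested. The same-numbered libraries of the groups did not deviate together (correlations of -0.02, 0.02 and 0.03), so the numbers were not taken as pairs; with a replicate block 2711 genes were called higher and 2685 lower, against 2709 and 2693, and 2 of the described genes higher and 1 lower. Depth limits the statements on TNFRSF14, TNFRSF1B and the ligands with under 10 counts per library.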
